A study of Mus musculus with 20 samples.

Results

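The 10 genes described here encode the cohesin machinery: the ring subunits Rad21, Smc1a, Smc3, Stag1 and Stag2, the loader Nipbl with its partner Mau2, the ring-bound regulators Pds5a and Pds5b, and the release factor Wapl. They were chosen by name from the 21887 protein-coding genes of a RefSeq table. Their accessible sites were all peaks that overlap the gene or the 20 kb on either side of it, which gave 105 to 162 peaks in the mutant lists and 186 peaks in the WT list. The full lists held 121032 to 159957 peaks in the mutants and 171719 in WT. Accessible DNA had been mapped by Omni-ATAC-seq, in which a transposase cuts open chromatin, in E14Tg2a mouse embryonic stem cells. The endogenous CTCF of these cells carries a degron, and a doxycycline-inducible Ctcf transgene supplies the CTCF under study. The 9 mutant lines express R339Q, R342C, S354F, K365T, R377C, R377H, Q418R, R448Q or H455R CTCF, and the line they are set against expresses WT CTCF from the same kind of transgene. All lines, WT included, received 500 µM indole-3-acetic acid, an auxin, and 1 µg/ml doxycycline for 2 days, so the WT cells too had been treated to degrade their own CTCF. Each genotype was 1 modified line with 2 replicates, and the sources used here do not say whether these were separate cultures. Both replicates of a genotype went into 1 deposited peak list, so replicate spread is unknown and genotypes are compared without a test.

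Cohesin is a ring-shaped protein complex that holds sister chromatids together and extrudes loops of chromatin. NIPBL and MAU2 load the ring onto DNA, PDS5 proteins bind it and, with WAPL, help to release it, and CTCF bound to DNA halts it at loop anchors. RAD21 closes the ring formed by SMC1A and SMC3, and STAG1 or STAG2 binds to RAD21. The comparisons ask which accessible sites at the genes of this partner complex have a counterpart when the only transgenic CTCF carries a substitution.

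A fold in the text is the authors' value for a peak, and a percentile is the share of a list's own peaks with that fold or a lower one. Percentiles from lists of different length are set side by side and show no change. The lists differed in depth as well as length. The background coverage that can be read from the steps of the fold values was 3.49 (K365T) to 5.45 (R448Q) in the mutants and 5.96 in WT. The 2 library codes in the peak names were consecutive in 8 lists but 42 apart in K365T and 28 apart in WT, and what these codes mark is not given. All 7 pluripotency markers examined, Pou5f1, Nanog, Sox2, Esrrb, Zfp42, Klf4 and Tfcp2l1, had a gene-end peak in all 10 lists, and so did 3 of 7 fibroblast markers, so a gene-end peak alone does not tell these cell types apart.

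Gene ends were accessible in every genotype for most of the cohesin genes. A peak within 1 kb of an annotated gene end was present in all 10 lists for 8 of the 10 genes, against 64.7% of all protein-coding genes. The exceptions were Rad21, with such a peak in 2 lists, and Nipbl, with none. Only the outer annotated ends counted, so a start inside an annotated gene was not taken as a gene end. The table used gives gene ends without strand, so start and end could be separated only for the 7 genes that have a RefSeq promoter sequence. Those genes have 8 promoters, each running from 250 bases before the start to 50 after it. Of these, 7 were overlapped by a peak in all 10 lists, against 44.5% of the 32851 promoters of the table. Those 7 also lay wholly inside a peak in all 10 lists, a measure not taken over all promoters. The other one, a second Mau2 promoter at chr8:70029464-70029763, had no peak in any list.

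The promoters of 4 genes are shown because their peaks carry the contrasts described next: Stag1, whose promoter lies inside the annotated gene, Smc3 and Pds5a, whose peaks had the widest range of percentiles, and Pds5b, the one promoter here with a word from the CTCF core motif. They are from RefSeq (GRCm38.p6, whose coordinates are those of mm10), read in the direction of transcription. Capitals mark the words found by the search described after them.
Stag1 (chr9:100643198-100643497, plus strand): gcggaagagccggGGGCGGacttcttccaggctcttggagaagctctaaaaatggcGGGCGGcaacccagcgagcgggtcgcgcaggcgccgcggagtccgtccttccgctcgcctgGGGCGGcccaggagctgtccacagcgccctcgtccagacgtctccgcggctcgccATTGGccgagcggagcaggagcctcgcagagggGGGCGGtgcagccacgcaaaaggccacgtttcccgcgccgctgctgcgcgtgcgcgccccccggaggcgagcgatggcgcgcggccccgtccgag
Smc3 (chr19:53600146-53600445, plus strand): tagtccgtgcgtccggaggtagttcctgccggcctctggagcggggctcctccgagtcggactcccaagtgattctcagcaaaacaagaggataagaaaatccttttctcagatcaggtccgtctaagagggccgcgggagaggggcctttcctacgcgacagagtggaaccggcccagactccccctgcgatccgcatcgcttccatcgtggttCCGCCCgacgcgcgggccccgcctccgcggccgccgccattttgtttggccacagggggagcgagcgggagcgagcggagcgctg
Pds5a (chr5:65698187-65698486, minus strand): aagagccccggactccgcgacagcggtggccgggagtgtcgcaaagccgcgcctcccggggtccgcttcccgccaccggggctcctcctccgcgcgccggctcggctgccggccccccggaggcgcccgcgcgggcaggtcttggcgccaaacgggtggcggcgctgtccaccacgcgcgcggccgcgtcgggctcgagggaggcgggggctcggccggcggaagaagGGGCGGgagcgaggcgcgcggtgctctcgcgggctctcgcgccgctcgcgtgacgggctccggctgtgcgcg
Pds5b (chr5:150673577-150673876, plus strand): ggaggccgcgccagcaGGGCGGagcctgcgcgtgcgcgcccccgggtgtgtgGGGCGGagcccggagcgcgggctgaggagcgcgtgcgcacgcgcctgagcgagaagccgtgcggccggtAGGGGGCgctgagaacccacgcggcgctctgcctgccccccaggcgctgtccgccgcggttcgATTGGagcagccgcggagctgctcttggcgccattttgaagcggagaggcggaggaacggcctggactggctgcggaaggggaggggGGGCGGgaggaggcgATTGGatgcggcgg
The bases G and C made up 73.7% of the Stag1 promoter, 65.0% of that of Smc3, 80.3% of that of Pds5a and 75.7% of that of Pds5b, against a median of 52.7% over all promoters of the table. The 7 words were searched on both strands, and none of the printed matches overlaps another. The GC box (GGGCGG), a binding site of SP1, was in 7 of the 8 promoters of the cohesin genes and in 35.7% of all promoters. The box named after CCAAT, bound by NF-Y, was in 4 of 8 and in 37.4% of all. Part of the CTCF core (AGGGGGC) was in 1 of 8, that of Pds5b, where it begins at position -129 from the start, and in 10.6% of all promoters. An ETS word (CCGGAAG) was in none of the 8 and in 8.86% of all. Part of the NRF1 site (GCATGCG) was in none of them and in 3.58% of all. Part of the YY1 site (AAGATGG) was likewise in none of the 8, against 6.34% of all. The TATA box (TATAAA) was also in none, against 13.6% of all.

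Among the ring subunits, the strongest gene-end peak ranked highest at Smc1a. That peak (chrX:152015921-152017135, WT fold 16.1) stood at the 94.2nd (Q418R), 96.4th (median) and 97.8th (R448Q) percentile of the mutant lists and at the 97.1st of the WT list. It covers an end shared with Ribc1, and Smc1a had no peak inside the gene away from its ends in WT. The Smc3 gene-end peak (chr19:53599865-53600991, WT fold 8.70) ran from the 62.2nd percentile in Q418R over a median of 78.0 to the 85.6th in H455R, against the 81.3rd in WT. Q418R was the lowest mutant for both genes. Inside Smc3, the strongest WT peak (chr19:53608866-53609382, fold 8.45) was found in all 9 mutants at percentiles of 61.3 to 82.0, with a median of 73.1, and stood at 80.2 in WT.

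Stag1 and Stag2 encode alternative subunits that bind RAD21, and both had a gene-end peak in every list. The Stag1 peak at the lower annotated end (chr9:100597392-100598498, WT fold 9.25) had mutant percentiles of 71.6 (R448Q) to 83.0 (R377H), with a median of 81.6, and a WT percentile of 83.6, above every mutant. The peak at the printed Stag1 promoter begins 45.0 kb inside the annotated gene and is the strongest WT peak of the gene body (chr9:100642679-100643717, fold 12.2). It stood at the 86.7th to 91.9th percentile of the mutant lists, with a median of 90.2, and at the 91.6th of the WT list. The Stag2 gene-end peak (chrX:42148710-42149355, WT fold 8.17) had mutant percentiles of 76.1 (Q418R) to 85.7 (R448Q), with a median of 81.6, and 78.9 in WT. Inside Stag2, the strongest WT peak (chrX:42173137-42173473, fold 7.19) was missing from R339Q and stood at 45.1 to 82.3 in the other mutants, against 73.7 in WT.

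Rad21, which encodes the subunit that closes the ring, had its main peak outside the 1 kb window. The peak near its lower end (chr15:51961432-51961701, WT fold 4.16) stood at the 11.6th percentile in H455R and the 40.7th in WT and was missing from the other mutants. Over all genes with a WT gene-end peak, 2.58% (R377C) to 5.34% (R339Q) had none in a given mutant list. The strongest gene-body peak of Rad21 (chr15:51990995-51992071, WT fold 10.5) began 28.4 kb from the lower end and stopped 1.47 kb short of the upper end, overlapping an end of the annotated gene Gm52217. It was found in all 9 mutants, at percentiles of 79.0 (Q418R) to 91.1 (K365T) with a median of 86.9, and stood at 87.5 in WT. With a window of 2 kb it counts as a gene-end peak, and 9 of the 10 genes then have one in all lists. With a window of 0.5 kb 7 genes have one, since the Wapl peak begins 0.947 kb from the annotated end.

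The loader genes differed from each other at their annotated ends. Mau2 shares an end with Sugp1, and the peak there (chr8:70042041-70043232, WT fold 14.1) stood at the 93.0th (Q418R) to 97.8th (R339Q) percentile in the mutants, with a median of 94.8, and at the 94.9th in WT. Inside Mau2, a peak at chr8:70023646-70024217 (WT fold 11.6) was found in all 9 mutants, at 87.9 to 96.6 with a median of 91.3, and stood at 90.4 in WT. Nipbl had no peak within 1 kb of an annotated end in any list. It has no promoter sequence here, so a start inside the annotated gene, as at Stag1, could not be looked for. Its strongest gene-body peak (chr15:8420887-8421240, WT fold 13.2) was found in all 9 mutants, at percentiles of 80.4 (R339Q) to 94.99 (H455R) with a median of 90.9, against 93.5 in WT. The widest WT peak of all 10 genes, 1974 bp, also lay in Nipbl (chr15:8443653-8445626, WT fold 9.58), 19.7 kb inside the upper annotated end, and overlapped an end of the annotated gene LOC102634078. This peak was picked out after its values were seen. It was found in all 9 mutants, at percentiles of 77.4 to 88.1, and stood at 84.7 in WT.

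Pds5a and Pds5b, whose products bind the ring, had gene-end peaks of unequal rank. The Pds5a peak (chr5:65698074-65698767, WT fold 6.90) had mutant percentiles of 57.7 (Q418R) to 79.8 (R448Q), with a median of 69.8, and 71.9 in WT. The Pds5b peak (chr5:150673384-150674533, WT fold 14.5) had mutant percentiles of 93.8 (Q418R) to 97.5 (K365T), with a median of 96.0, and 95.4 in WT. WT lay inside the range of the mutants at both genes. The strongest peak inside Pds5a (chr5:65678768-65679374, WT fold 8.75) was found in all 9 mutants, at 78.2 to 87.7 with a median of 81.8, and stood at 81.5 in WT. The strongest inside Pds5b (chr5:150706561-150707489, WT fold 11.6) varied more, from the 51.5th percentile in R448Q over a median of 85.6 to the 95.8th in H455R, against 90.4 in WT.

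Wapl, the release factor gene, held the strongest peak of any of the 10 gene bodies. This peak (chr14:34693750-34694535, WT fold 20.1) stood at the 99.3rd to 99.9th percentile of the mutant lists, with a median of 99.7, and at the 99.3rd of the WT list. The Wapl gene-end peak (chr14:34673326-34674491, WT fold 12.9) had mutant percentiles of 89.3 (Q418R) to 95.3 (R448Q), with a median of 93.8, and 93.0 in WT. Both sites were called in every list.

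**Figure D1:**
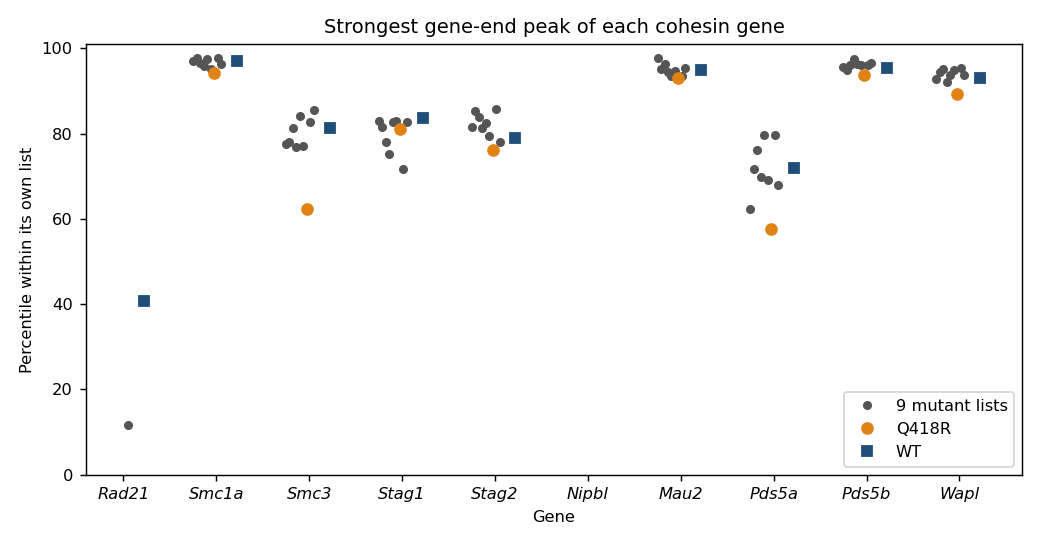
Percentile, within its own list, of the strongest peak within 1 kb of an annotated end of each gene (vertical axis), for the 9 mutant lists (circles, Q418R in orange) and the WT list (squares). The peaks of Smc1a, Mau2, Pds5b and Wapl stand high in all lists, those of Smc3 and Pds5a are lowest in Q418R (62.2 and 57.7), Rad21 has 1 mutant value and Nipbl has none.

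Q418R had the lowest of the 9 mutant percentiles at 7 of the 8 genes with a gene-end peak in every list, all but Stag1, where R448Q was lowest. Over all 14168 protein-coding genes with such peaks, Q418R was lowest at 30.1%, more often than any other mutant. The median over the 10 lists was between 70.7 (Pds5a) and 96.8 (Smc1a) for the 8 genes, beside a median of 86.0 and quartiles of 71.8 and 94.4 over all of those genes. The pattern over the lists most like that of Wapl, by the mean absolute difference in percentile over the 10 lists among 14160 other genes, was found at Zfp715 (0.727 points), Ccnb1 (0.747 points) and Gak (0.761 points). The same measure could not be taken for Rad21 and Nipbl, which lack a gene-end peak in some or all lists.

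The number of peaks called at the genes was larger in WT than in any mutant for 4 of them. For 3 of these, Stag1, Pds5a and Pds5b, so was the share of the list. That share divides by list length and does not adjust for depth or for the class of the peaks. Per 100 kb of gene and flanks, WT peaks were densest at Rad21 (25.4) and sparsest at Smc1a (2.34). Stag1, the longest gene with 361 kb, had 26 (S354F), 33 (median) and 43 (H455R) peaks in the mutants and 52 in WT. Per 100000 peaks of a list, that is 18.5 (S354F) to 26.9 (H455R) in the mutants and 30.3 in WT. At Pds5a the mutants had 9 to 14 peaks, with a median of 12, and WT had 23, which is 6.15 to 9.28 per 100000 in the mutants and 13.4 in WT. At Pds5b they had 11 to 19, with a median of 16, and WT had 25, or 8.93 to 12.9 per 100000 in the mutants and 14.6 in WT. At Wapl the mutants had 10 to 16 and WT had 17, but per 100000 peaks Q418R (12.2) and S354F (9.96) were above WT (9.90). Nipbl had the most peaks in H455R (25), above the 22 of WT. Rad21 reached 18 in H455R and in WT, while Smc1a, Smc3 and Stag2 had counts in WT within the range of the mutants, and Mau2 had 10 in WT against 6 to 11 in the mutants.

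**Figure D2:**
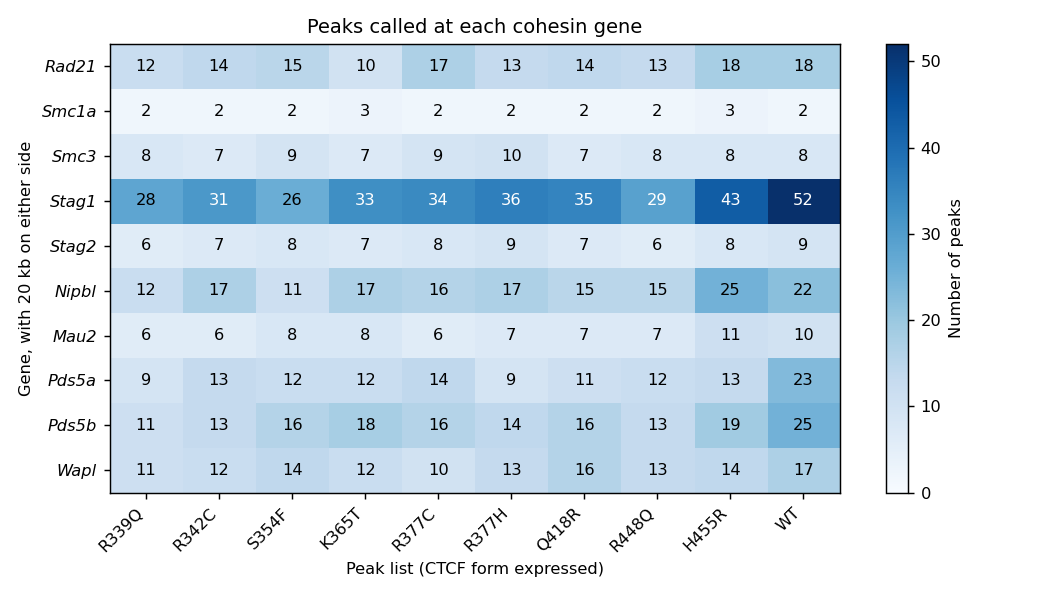
Number of peaks (colour and printed value) overlapping each gene or its 20 kb flanks (rows) in each list (columns, WT last). Stag1, Pds5a, Pds5b and Wapl have more peaks in WT than in any mutant, but the WT list is also the longest, and at Wapl its share of the list is below that of Q418R and S354F.

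WT peaks of these genes were missing from the mutant lists more often than WT peaks in general. Of the 186 WT peaks, R339Q lacked 90 (48.4%, exact 95% interval 41.0 to 55.8), against 35.1% of all WT peaks. R448Q lacked 81, or 43.5%, against 27.7% of all. S354F lacked 76, or 40.9%, against 24.3%. K365T lacked 75, or 40.3%, against 28.3%. R342C lacked 72, or 38.7%, against 26.1%. All these shares, and those of R377H and R377C given below, exceed that of the whole list by more than 10 percentage points. All intervals here are Clopper-Pearson intervals that cover counting error over peaks only. R377H lacked 70, or 37.6%, against 26.0%. Q418R lacked 69, or 37.1%, against 30.8%, and its interval of 30.1 to 44.5 holds the share of the whole list. R377C lacked 63, or 33.9%, against 20.9%. H455R lacked the fewest, 47 or 25.3% (19.2 to 32.1), against 19.3%, and its lower bound is below that share. Missing means that no peak of the list overlaps by 1 bp, and does not show that the DNA was closed.

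Most of the missing sites lay inside the genes, away from their ends. Of the 119 WT peaks in gene bodies away from the ends, R339Q lacked 73 (61.3%, interval 52.0 to 70.1), against 40.0% of all gene-body peaks. R448Q lacked 68 (57.1%, against 33.3%) and S354F lacked 66 (55.5%, against 27.2%). R342C lacked 59 (49.6%, against 29.8%). K365T and R377H lacked 57 each (47.9%, against 32.6% and 29.9%). In each of these 6 mutants nearly as many gene-body sites were missing as were found, or more. Q418R lacked 56 (47.1%, interval 37.8 to 56.4, against 36.1%), R377C 51 (42.9%, against 23.4%) and H455R 41 (34.5%, 26.0 to 43.7, against 21.8%). When each peak was set beside all WT peaks of its own class and strength, the share missing over those peaks was 21.3% (H455R) to 40.3% (R339Q), below the share at the cohesin genes in all 9 mutants.

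Background coverage was lower in every mutant than in WT, and the share missing was not tested against it. R448Q, whose background coverage of 5.45 was nearest to the 5.96 of WT, lacked 57.1% of the gene-body peaks. H455R, the next nearest at 4.66, lacked 34.5%, the lowest share of the 9. When all lists were cut to their 121032 strongest peaks, the share missing in gene bodies still lay above that of peaks of the same class and strength in 9 of 9 mutants. In the flanks, 54 WT peaks were looked for, and 6 (H455R, 11.1%) to 14 (K365T, 25.9%) were missing. Of all peaks of the same class and strength, 15.6% (H455R) to 29.8% (R339Q) were missing. The share in K365T lay above its own matched share of 23.2%, and those in all other mutants lay below theirs. Over all intergenic peaks, 19.3% (H455R) to 34.5% (R339Q) were missing, with 29.2% in Q418R. Some flank peaks lie at or inside neighbouring genes, so intergenic peaks are not quite a like set. There were 13 WT peaks at gene ends, and 10.0% (R377C), 10.1% (H455R) and up to 18.3% (R339Q) of all gene-end peaks were missing. R339Q lacked 5 of the 13 (38.5%, against 14.8% at the same class and strength). R342C and K365T each lacked 4 (30.8%, against 10.6% and 11.1%), and R377C and R377H each lacked 3 (23.1%, against 8.23% and 10.9%). S354F, Q418R and R448Q each lacked 2 (15.4%, against 9.31%, 12.6% and 10.1%), and H455R lacked 0, which allows up to 24.7%, against 8.34%. The share at gene ends was thus above that at equal strength in 8 of 9 mutants, but each of these 9 backgrounds lay inside the interval of the 13 peaks, such as 13.9% to 68.4% in R339Q.

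**Figure D3:**
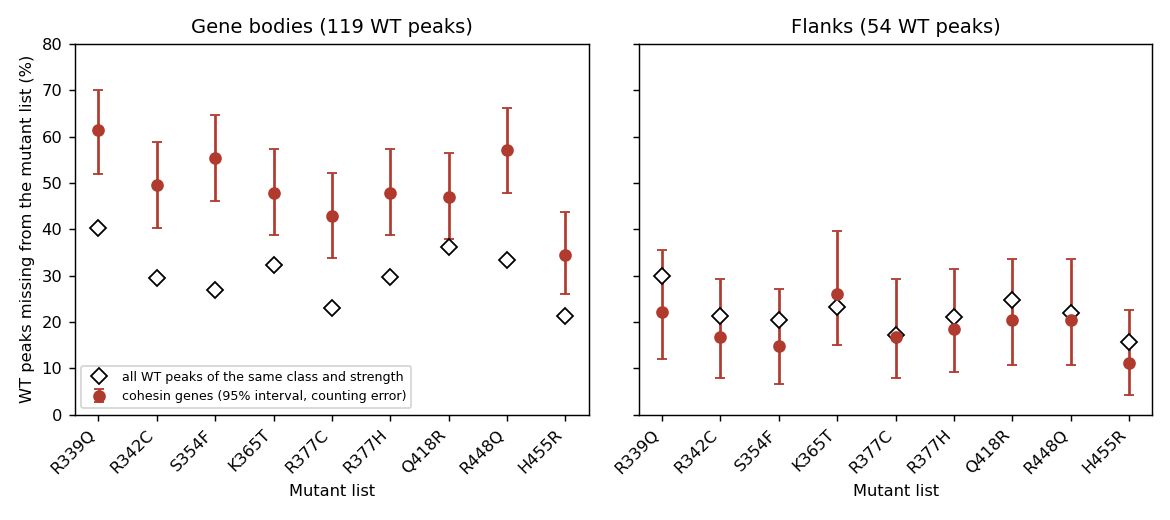
Share of the WT peaks at the cohesin genes that no peak of a mutant list overlaps (red, with exact 95% intervals for counting error) and share missing over all WT peaks of the same class and strength (diamonds), in gene bodies (left) and flanks (right). In gene bodies the red points (34.5 to 61.3%) lie above the diamonds in all 9 mutants, and in the flanks every diamond lies within the interval.

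The gap was seen at 5 of the genes. Stag1 lacked 13 to 26 of its 42 gene-body peaks in a mutant, beside 9.15 to 17.7 for peaks of the same class and strength. Nipbl lacked 4 to 11 of 16, beside 3.14 to 6.21. Pds5a lacked 9 to 12 of 13, beside 3.43 to 6.26. Pds5b lacked 8 to 13 of 19, beside 3.66 to 6.80, and Wapl lacked 5 to 7 of 11, beside 1.81 to 3.75. Each of these 5 genes exceeded the matching number in all 9 mutants, but the 9 comparisons share the same WT peaks. At Nipbl the excess was small in K365T (5 beside 4.87) and R377H (5 beside 4.48) and larger in others, such as R339Q (11 beside 6.21). Rad21, with 1 to 4 of 8 missing beside 2.63 to 4.30, exceeded it in 2 mutants. Stag2, with 0 to 2 of 6 missing, also exceeded it in 2. Smc3 and Mau2 had 2 gene-body peaks each and Smc1a none, too few to compare.

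Sites present in WT but in no mutant were mostly inside the genes. They numbered 28 of 186 (15.1%, exact 95% interval 10.2 to 21.02), against 5.42% of all WT peaks. Of these, 26 lay in gene bodies, 21.8% of the 119 there (14.8 to 30.4), against 6.68% of all gene-body peaks and 6.29% at equal strength. A further 2 lay in flanks (3.70%, against 4.81% of all intergenic peaks and 3.57% at the same class and strength). At gene ends it was 0 of 13, where 2.45% of all WT gene-end peaks were of this kind. The genes involved were Stag1 with 9, Pds5a with 7, Pds5b with 7, Wapl with 3 and Nipbl with 2. Rad21, Smc1a, Smc3, Stag2 and Mau2 had none. Among 2495 genes with at least 10 gene-body peaks in WT, where the median share of such sites was 5.88%, Pds5a had the highest share (7 of 13, 53.8%). Pds5b stood at rank 12 (31.6%), Stag1 at 79 (21.4%), Wapl at 152 (18.2%) and Nipbl at 318 (14.3%). Rad21, Smc1a, Smc3, Stag2 and Mau2 had fewer than 10 such peaks and were not ranked. Peaks at an end of another protein-coding gene were left out of the ranking, so Nipbl counts there with 14 peaks.

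The sites without any mutant counterpart were narrow and mostly weak. Their median width was 228 bp, against 600 bp for the 69 WT peaks found in all 9 mutants, and their folds ran from 2.10 to 7.90. Over the whole WT list the corresponding median widths were 228 bp and 613 bp. In the weakest of 5 bands of equal size by WT fold, 10 of 25 gene-body peaks of the cohesin genes were of this kind (40.0%, against 17.6% of all gene-body peaks in the band). In the second band it was 7 of 22 (31.8%, against 10.0%) and in the middle band 8 of 37 (21.6%, against 2.65%). The gap was present in each of these bands, up to a fold of 5.46. Strength within a band was not matched. In the 2 strongest bands it was 1 of 20 (against 0.0922%) and 0 of 15 (against 0%).

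**Figure D4:**
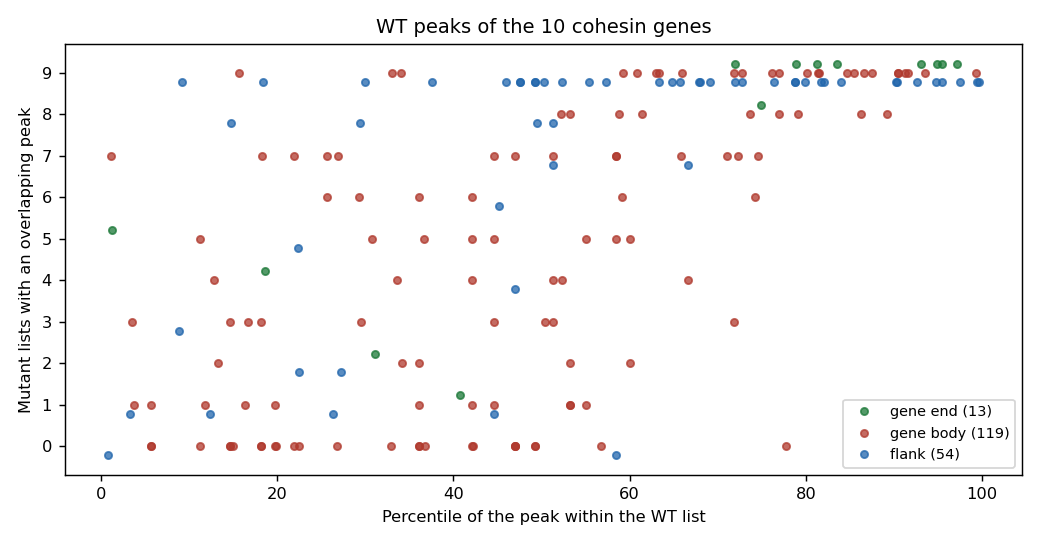
Number of mutant lists with an overlapping peak (vertical axis) for each of the 186 WT peaks at the cohesin genes, by its percentile in the WT list (horizontal axis) and its class (colour, points of a class shifted slightly up or down). Gene-body peaks fill the lower rows up to about the middle of the scale, and 28 peaks lie in the row at 0.

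The strongest of these sites lay in Pds5b and Pds5a. The Pds5b peak at chr5:150751411-150751721 (fold 7.90, 77.7th percentile of the WT list) was the strongest WT peak of the 10 genes to be missing from R342C, S354F, K365T, R377C, Q418R and H455R. R339Q lacked a stronger one, also in Pds5b (chr5:150738095-150738888, WT fold 11.1), which stood at percentiles of 67.7 to 89.4 in the other mutants. R377H alone lacked chr5:150772412-150772896 (WT fold 10.0, at 29.8 to 67.6 in the other mutants). R448Q alone lacked chr5:150682881-150683233 (WT fold 8.19, at 35.6 to 73.6 in the others). The strongest site missing from each mutant thus lay inside Pds5b in all 9 comparisons, which share the WT list. In Pds5a, the strongest WT-only peak (chr5:65639391-65639857, fold 5.17, 467 bp) was also the widest of the 28. Between 18.7 kb and 33.7 kb from the lower end of Pds5a, 4 peaks in a row were WT-only. In Pds5b, 3 of them began between 77.7 kb and 83.0 kb from the lower end.

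The surroundings of Pds5b held a larger share of the WT list than of any mutant list. Within 2.5 Mb on either side of that locus lay 0.292 to 0.307% of the mutant lists and 0.361% of the WT list, which is a log2 difference of 0.26 from the mutants' median. WT was also above every mutant around Stag2, with 0.0337 to 0.0427% in the mutants and 0.0448% in WT (a log2 difference of 0.18), and around Wapl, with 0.186 to 0.202% in the mutants and 0.207% in WT (0.07). Outside the Pds5b locus itself, 12.6% of the 620 WT peaks of this region and 15.1% of its gene-body peaks had no counterpart in any mutant. Around Pds5a the corresponding shares were 4.58% and 4.62%, around Stag1 4.68% and 6.25%, around Wapl 7.32% and 8.13%, and around Nipbl 5.68% and 7.54%. The part of these surroundings in the Pds5b result was not tested. Without Pds5b, 20 of 100 gene-body peaks were WT-only (against 6.37% at equal strength), and without Stag1 17 of 77 were (22.1%, against 6.29%).

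**Figure D5:**
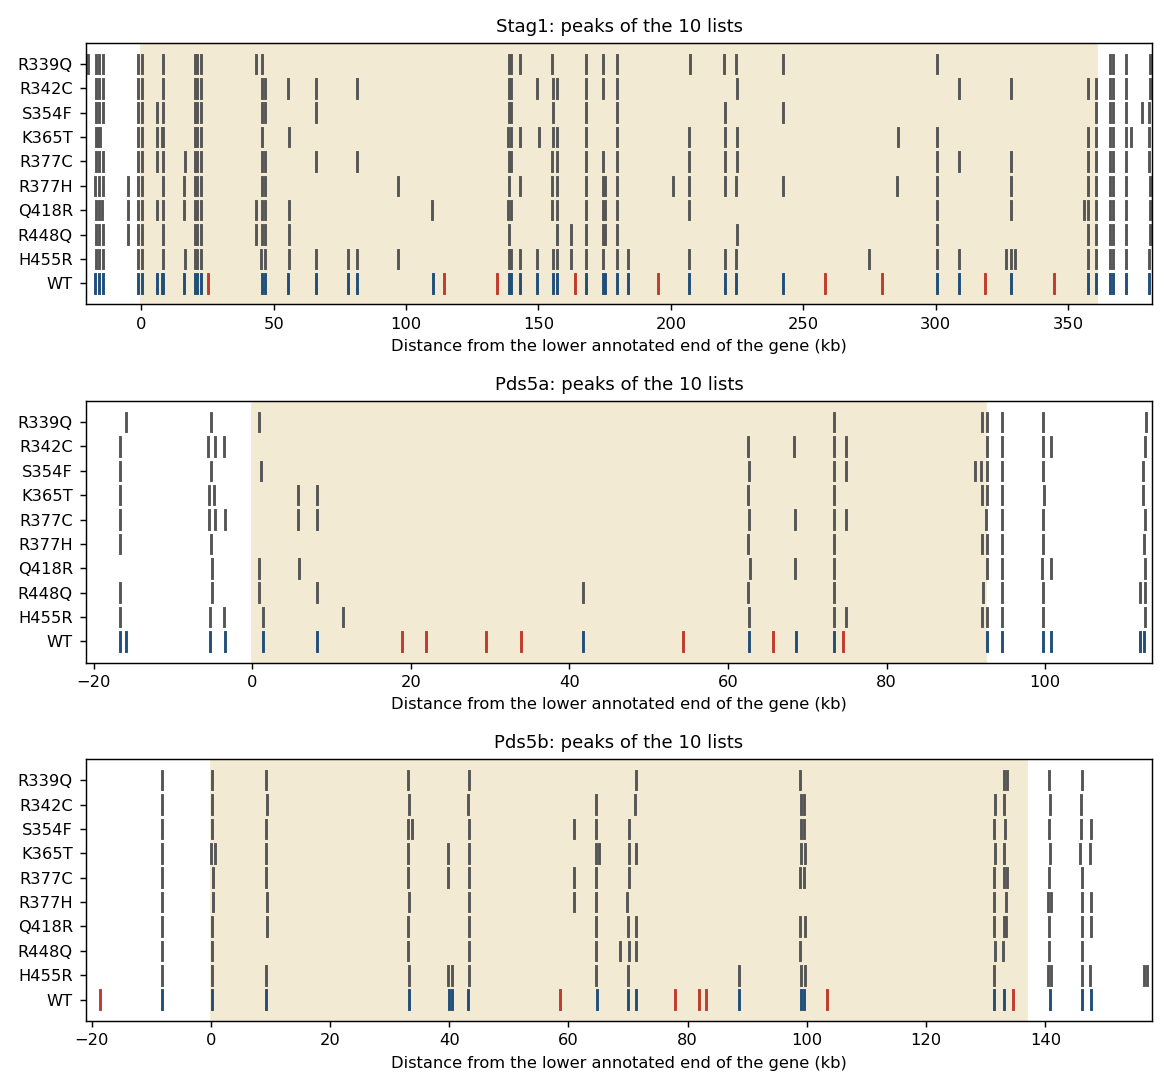
Peaks (ticks) of the 9 mutant lists and of the WT list (bottom row, blue, or red where no mutant has a counterpart) at Stag1, Pds5a and Pds5b, by distance from the lower annotated end of the gene in kb; shading marks the annotated gene. The red ticks lie inside the genes except for 1 in the flank of Pds5b.

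Sites shared by all genotypes were fewer than in the list as a whole. Of the 186 WT peaks, 69 (37.1%, interval 30.1 to 44.5) were found in all 9 mutants, against 48.5% of all WT peaks. In gene bodies it was 25 of 119 (21.01%, against 42.4%), at gene ends 8 of 13 (61.5%, against 73.3%) and in flanks 36 of 54 (66.7%, interval 52.5 to 78.9). Intergenic peaks, at 47.9%, are an unlike set for the flanks, since some flank peaks lie at or inside neighbouring genes. At the same class and strength the corresponding shares were 41.1% for gene bodies, 78.6% for gene ends and 53.6% for flanks. Those for flanks and gene ends lie inside the intervals of the cohesin genes, and that for gene bodies lies above its interval of 14.1 to 29.4. When the peaks of all lists were merged into 229 regions, 68 were present in all 10 lists, 28 in WT only and 24 in 1 mutant only. The 28 are the WT-only peaks already set beside 5.42% of all WT peaks. Regions were merged at these genes only, so the counts of 68 and 24 have no share over the whole lists beside them.

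Peaks gained in a mutant were about as frequent as in the whole lists, and mostly weak. H455R had 21 of 162 peaks without a WT overlap (13.0%, against 13.1% of its whole list). R448Q had 13 (11.0%, against 14.8%), Q418R 12 (9.23%, against 7.97%), R377H 11 (8.46%, against 12.1%) and S354F 11 (9.09%, against 8.82%). R377C had 9 (6.82%, against 10.8%), K365T 8 (6.30%, against 8.94%), R342C 7 (5.74%, against 9.77%) and R339Q 7 (6.67%, against 7.14%). These shares were near those of the whole lists, whose values lay inside the intervals of all 9. With all lists cut to equal length the gains numbered 19 in R339Q (18.1%, against 19.9% of its list), 11 in R342C, 20 in R377C (17.1%, against 15.8%) and 23 in Q418R (18.9%, against 17.2%). R448Q then had 9 (9.47%, interval 4.42 to 17.2, against 21.1%), below its list, while the other 8 intervals held the value of the list. No region was present in 8 or 9 mutants and absent in WT. The region shared by the most mutants without WT, 6 of them, lay in a flank of Wapl (chr14:34656988-34657459). The strongest single gain was in Nipbl in Q418R (chr15:8291281-8291784, fold 8.20, 76.8th percentile), with no counterpart in any other list. H455R had 9 peaks in no other list (5.56%, against 4.37% of its list), and Q418R had 4 (3.08%, against 2.22%). K365T had 3 (2.36%, against 1.72%), S354F 2 (1.65%, against 1.52%) and R342C 0 (against 1.73%). R339Q, R377C and R377H had 1 each (0.952%, 0.758% and 0.769%, against 0.915%, 1.73% and 2.62%). R448Q also had 1 (0.847%, interval 0.0215 to 4.63, against 4.65%), just below its list. The other 8 intervals held the value of the list.

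Other genes of sister chromatid and chromosome structure were listed for comparison. Of 9 genes that establish, protect or release cohesion in mitosis, 7 had a gene-end peak in all 10 lists, near the 64.7% of all protein-coding genes: Esco1 and Esco2, which encode acetyltransferases of SMC3, Cdca5, Hdac8, Espl1, which encodes separase, Pttg1 and Haspin. Sgo1 had none in any list, and Sgo2a lacked one in R342C. All 4 meiotic cohesin genes, Rec8, Rad21l, Smc1b and Stag3, had one in all 10 lists, as did all 10 genes of condensin and the SMC5/6 complex, and Ctcf. Rec8 stood at the 96.5th to 99.3rd percentile of the mutant lists and the 97.7th of WT, while Stag3 stood at 17.9 to 62.2 in the mutants and 51.9 in WT.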

How the data were processed

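Omni-ATAC-seq peaks of 20 samples (10 genotypes, 2 replicates each) were used. Per the submitters' processing notes, the build was mm10 and the tools were Bowtie2, deepTools, MACS2 and Trim Galore, without versions. The sources used here do not give the calling threshold, read shifting, duplicate handling or total reads. The authors deposited 1 list per genotype, and its peak names carry both library codes. The deposited value per peak is a ratio, taken from its range and steps to be MACS2's fold enrichment. Of these values, 28.3% to 31.8% lie on multiples of 1 step, from which background coverage was computed as 1/step minus 1, the measure of depth used here.

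A peak counted as found if a peak of the other list overlapped it by 1 bp or more. Genes came from a RefSeq table of GRCm38.p6, and coordinates are 1-based. Gene-end peaks lie within 1 kb of either annotated end, gene-body peaks elsewhere in the gene and flank peaks within 20 kb outside. Gene-body peaks thus include the peak at the Stag1 promoter and peaks in Rad21 and Nipbl at an end of another annotated gene. Without exons, introns were not separated from exons. Each WT peak was compared with all WT peaks of its class over all protein-coding genes (gene end, gene body or intergenic) and its strength band (5 of equal size). No count model or p-value was used. Exact binomial 95% intervals cover counting error over peaks, which neighbours in a gene share. For each gene the strongest WT gene-end and gene-body peaks were named, and the WT-only, strongest missing and strongest gained regions. Overlap lookups were tested on simulated data. Python 3.11.15, pandas 2.3.3 and scipy 1.17.1 were used. The genes, lists and alternatives were chosen with earlier results of these data known.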

Additional observations from a re-analysis of the deposited data

How the results depend on the processing

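No paired analysis was possible because each deposited list pools both replicates of a genotype, and for the same reason no replicate could be left out. Of 149 recomputed values, 111 stayed within the interval, range or factor of 1.5 of the reported value and 38 did not. Reversals of direction were not scored. The overlap of 50% and the flanks of 10 kb moved none. With lists of equal length the share of WT peaks found was 61.6% in R339Q, 71.0% in R342C and 70.3% in Q418R, and the peaks without a WT overlap numbered 19 in R339Q, 11 in R342C, 20 in R377C and 23 in Q418R. With only the peaks above the median of the list looked for, the share found was 74.0% in R339Q, 85.4% in R342C, 80.2% in S354F, 84.4% in K365T, 85.4% in R377C, 84.4% in R377H, 84.4% in Q418R, 78.1% in R448Q and 92.7% in H455R. The WT-only peaks were then 3 of 96, and 2 of 56 in gene bodies (3.57%, against 0.508% at equal strength). Peaks without a WT overlap then numbered 1 in R342C, K365T and Q418R and 0 in the other 6. With the flanks left out, 130 WT peaks overlapping the genes remained, gene-end peaks included. The share found was then 41.5% in R339Q, 53.1% in R342C, 48.5% in S354F, 54.6% in R377H and 47.7% in R448Q. In that setting 33 WT peaks were in all 9 mutants, and 3 (R342C), 6 (S354F), 5 (R377H) and 7 (R448Q) mutant peaks had no WT overlap. Apart from the gains at equal length and the WT-only share in gene bodies, these values have no background share beside them. They do not show whether the cohesin genes differ from the whole lists in those settings. With a gene-end window of 2 kb the median percentile of Rad21 was 87.0. The cause of these shifts was not tested. The WT-only share in gene bodies at equal list length was 18.8% (16 of 85), against 3.37% at equal strength. It lay above the background at equal strength in each of the 6 alternatives run, and the gene-body share missing did so in 9 of 9 mutants, under alternatives chosen after the data were seen. The start-only alternative was not run for Rad21, Stag2 and Nipbl, whose strand was not used here. Depth limits all calls of weak peaks: a peak under the calling threshold of a shallower list counts as missing.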

Other observations

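The flanks of the cohesin genes held some of their strongest sites. The peak at an end of N4bp2l2, beside Pds5b (chr5:150665015-150665939, WT fold 21.6), stood at the 99.0th to 99.7th percentile of the mutant lists and the 99.6th of the WT list. The peak at an end of Hsd17b10, a mitochondrial dehydrogenase gene beside Smc1a (chrX:152001562-152002601, WT fold 20.9), stood at 98.1 to 99.7 in the mutants and 99.5 in WT. The intergenic peak 4.29 kb beyond the upper end of Nipbl (chr15:8469117-8469600, WT fold 16.5) stood at 76.0 (R339Q) to 96.3 (R377C) in the mutants and at 97.4 in WT. The intergenic peak beside Stag1 (chr9:100969463-100969863, WT fold 11.5) ran from 63.3 in H455R to 97.0 in Q418R, against 90.2 in WT.

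The edge of the flank window left out some strong peaks. The first WT peak left out at Wapl lay 20.2 kb from the gene with a fold of 13.5, above the 12.9 of the Wapl gene-end peak, and the first one left out at Pds5b lay 20.03 kb away with a fold of 9.34. At Stag1 it lay 20.003 kb away with a fold of 2.28. The outermost WT peak kept at Nipbl lay 19.9 kb from the gene with a fold of 4. At gene ends, the Rad21 peak just inside the 1 kb window lay 0.903 kb from the end and the first one outside 1.05 kb, with folds of 4.16 and 3.75.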
